A study of Drosophila melanogaster with 4 samples.

Results

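Cytochrome P450 genes were described in RNA from pharate adults, the last stage before the fly leaves its pupal case, of 4 Drosophila melanogaster lines. Members were the loci carrying a single gene name that starts with Cyp and a number, which took 63 of 13866 loci in the deposited FPKM tables. Of these, 62 carried the P450 form of the name, with a family number followed by a subfamily letter. The remaining locus, Cyp1, has no subfamily letter and encodes a cyclophilin, a protein-folding enzyme, so it was counted as matched by name only and left out of the P450 counts. Cyp1 had 373 FPKM in tg1, 334 in tg2, 367 in hom and 352 in CAG.

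The lines are called tg1, tg2, hom and CAG after the ends of the names LU.10580.tg1, LU.10580.tg2, LU.10580hom and LU.10580/CAG, and the value column of the CAG library is headed het. The sources used here give neither the meaning of these names nor the genotypes, the sex of the animals or the number pooled. All lines share the LU.10580 prefix, were raised on cornmeal food at 24 °C, and had no labelled treatment. Each line had 1 library, so every difference below is between libraries, without a replicate check, a standard deviation or a p-value. RNA came from whole pharate adults as labelled, and fewer cells of a type cannot be told apart from less RNA per cell.

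P450s are heme enzymes that insert an oxygen atom from molecular oxygen into small lipophilic substrates. In insects they make and break down the moulting hormone ecdysone, build the waterproofing hydrocarbons of the cuticle, and clear plant toxins and insecticides. Most sit in the endoplasmic reticulum and take electrons from the P450 reductase Cpr, and those of the mitochondrial clan take them from a ferredoxin. The naming system groups fly P450s into the CYP2, CYP3, CYP4 and mitochondrial clans. The Cyp6, Cyp9 and Cyp28 families belong to the CYP3 clan, which is best known for detoxification, Cyp4 to the CYP4 clan, and Cyp12 to the mitochondrial clan.

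FPKM, fragments per kilobase of transcript scaled to the mapped fragments of the library, is a level per length, so levels of different genes can be set side by side. Of the 62 P450 loci, 52 averaged 1 FPKM or more across the libraries and count as tested below. Differences are on the log2(FPKM + 1) scale, the first-named library minus the second, which understates the change of low genes. Differences of 1 or more in size, which is 2-fold on the FPKM + 1 scale, were called. Over all loci, the median level was 8.05 FPKM in tg1, 8.38 in tg2, 8.14 in hom and 8.48 in CAG. Steps between the lowest values gave a depth relative to CAG of 1.12 for tg1, 1.17 for tg2 and 0.774 for hom. The total number of fragments is unknown.

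P450 levels were low to moderate, with a single gene far above the rest. Cyp4g1, the oenocyte enzyme that makes cuticular hydrocarbons by removing the aldehyde carbon of long-chain precursors, had 1091 FPKM in tg1, 677 in tg2, 848 in hom and 1102 in CAG. That was 61.3% of the summed P450 FPKM in tg1, 53.8% in tg2, 51.2% in hom and 57.6% in CAG. Its locus span, X:173686 to 370625, holds 11 other loci. Among tested members the mean lay between 1 and 10 FPKM at 27 loci, between 10 and 30 at 18, and at 30 or more at 7, Cyp4g1 included. The median of these means was 9.59 FPKM over the tested P450 loci and 11.6 over all 11689 tested loci.

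**Figure D1:**
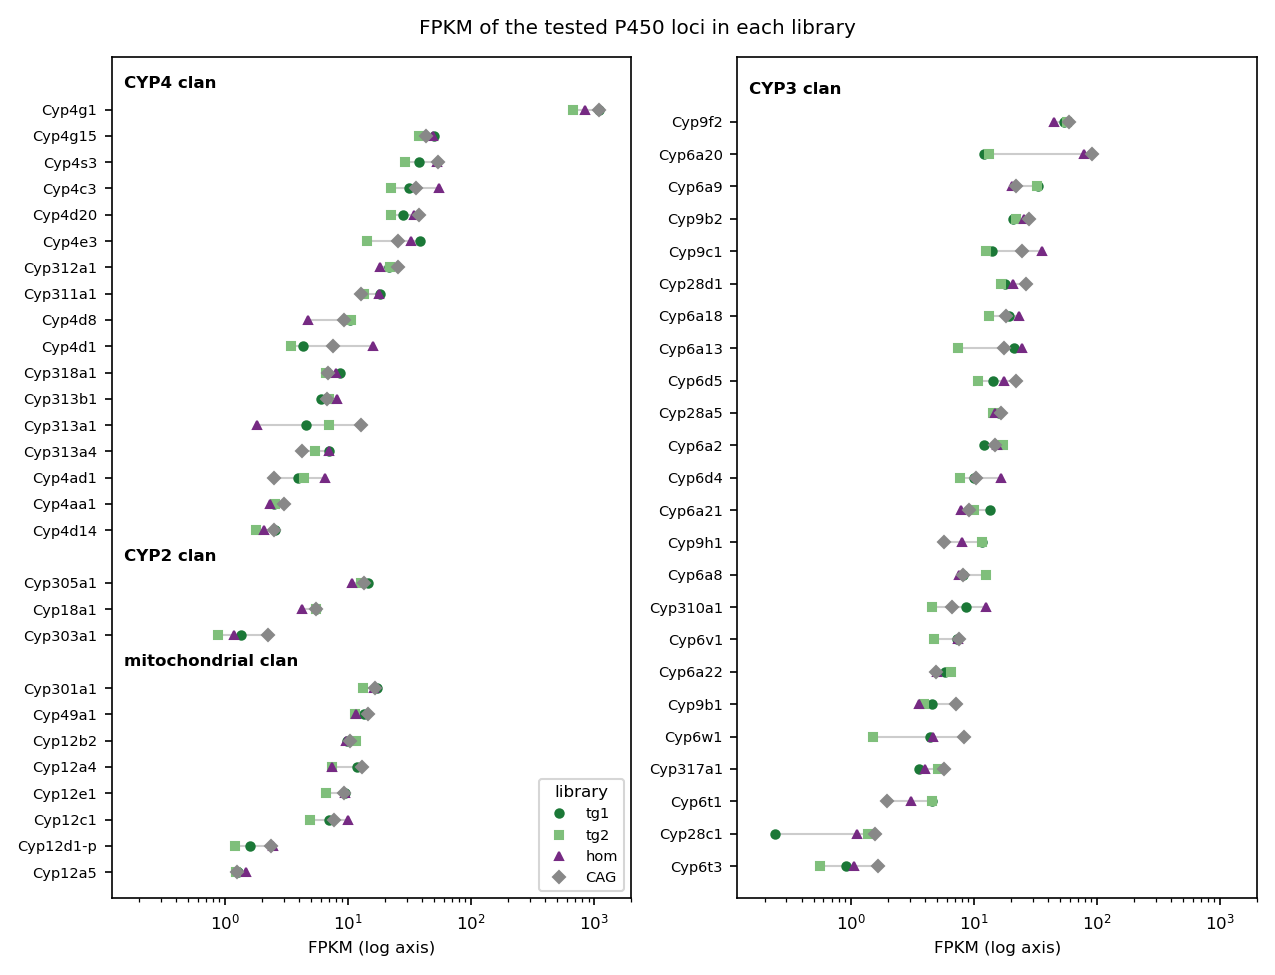
FPKM on a log axis of each tested P450 locus in the tg1, tg2, hom and CAG libraries, grouped by clan and ordered by mean level, with a grey line from the lowest to the highest library. Cyp4g1 lies far above the others, and Cyp6a20 shows tg1 and tg2 near 12.0 and 13.2 FPKM apart from hom and CAG at 79.1 and 91.0.

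tg2 held the lowest value at 27 of the 52 tested P450 loci, which is 51.9%, against 28.1% of all tested loci. The lowest value lay in tg1 at 6 P450 loci, in hom at 13 and in CAG at 6. CAG held the highest value at 22, or 42.3%, against 25.2% of all tested loci, while tg2 was highest at 6, or 11.5%, against 31.6%. The summed P450 level without Cyp4g1 was 689 FPKM in tg1, 583 in tg2, 808 in hom and 811 in CAG. The sum over these single-name P450 loci was thus smallest in tg2 with or without its dominant member. Loci with joined P450 names, described further below, are left out of it. Loci are not replicates, and these shares describe 4 libraries.

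**Figure D2:**
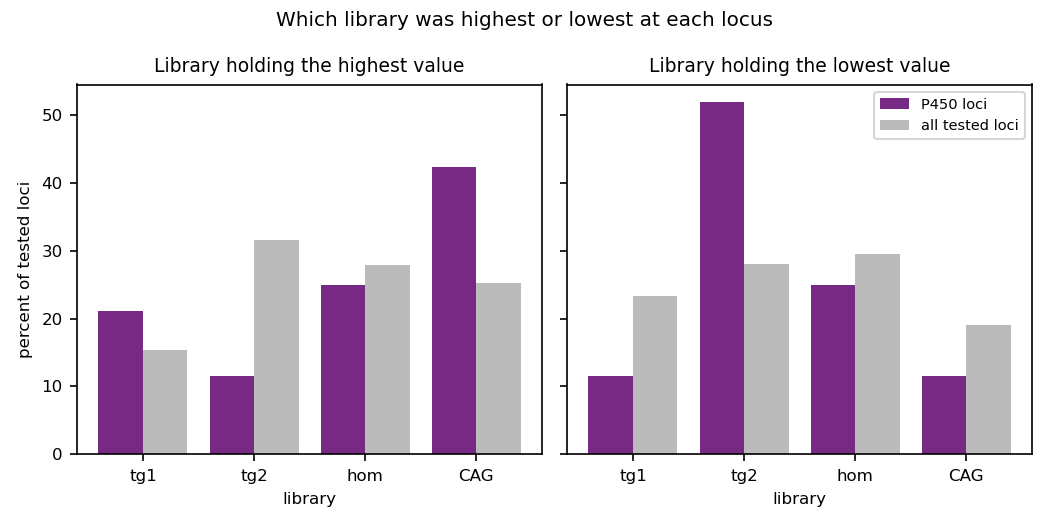
Percent of tested loci at which each library held the highest value (left) or the lowest value (right), for the 52 P450 loci and for all 11689 tested loci. The P450 bar for the lowest value reaches 51.9% in tg2, against 28.1% of all tested loci.

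P450 loci passed the call in some pair at a higher share than all tested loci. At least 1 of the 6 pairs was called at 13 of 52 P450 loci, which is 25%, against 11.6% of all tested loci. All 4 libraries lay within 0.5 on the log2 scale at 19 P450 loci, or 36.5%, against 60.2% of all tested loci. The median distance between the highest and the lowest library was 0.69 at P450 loci and 0.42 at all tested loci. The 13 called members were Cyp6a20, Cyp6a13, Cyp6d4, Cyp6w1, Cyp9c1, Cyp28c1, Cyp310a1, Cyp4c3, Cyp4d1, Cyp4d8, Cyp4e3, Cyp4ad1 and Cyp313a1. They lay on all major arms, with 2 on 2L, 5 on 2R, 1 on 3L, 3 on 3R and 2 on X. By clan, 7 of 24 tested members of the CYP3 clan and 6 of 17 of the CYP4 clan were called. In the mitochondrial clan 0 of 8 were called and in the CYP2 clan 0 of 3, against 11.6% of all tested loci. Clans of 8 and 3 tested loci are too small to be set apart by a count of 0.

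The largest P450 difference was at Cyp6a20, a gene whose level in support cells of the fly antenna has been linked to male aggression. Cyp6a20, at 2R:10769624 to 10771553 of dm3, had 12.0 FPKM in tg1, 13.2 in tg2, 79.1 in hom and 91.0 in CAG. Both tg libraries were low and the ranges did not overlap. tg1 was 7.09-fold and tg2 6.47-fold lower than CAG on the FPKM + 1 scale, differences of −2.83 and −2.69. Against hom, tg1 was 6.17-fold and tg2 5.63-fold lower. Both tg libraries lay at least 2-fold below both others at 0.171% of all tested loci, and Cyp6a20 was the only P450 locus among them. Of 11689 tested loci, 2 had a gap between the tg libraries and the others at least as low, counting Cyp6a20 itself. No P450 locus had both tg libraries at least 2-fold above both others, which 0.163% of all tested loci had. At any size, both tg libraries lay below hom and CAG at 15 of 52 P450 loci, or 28.8%, against 20.4% of all tested loci. They lay above both at 6, or 11.5%, against 18.3% of all tested loci, and these 6 were Cyp6a9, Cyp6a21, Cyp6a22, Cyp9h1, Cyp4d8 and Cyp6t1. tg1 and tg2 are separate lines and were not taken as replicates of a condition.

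None of the 5 other tested loci in the gene cluster of Cyp6a20 was called in any pair, against 11.6% of all tested loci. These 5 loci are too few to set the cluster apart. The cluster between 10759177 and 10776514 of 2R holds 7 loci of the Cyp6a subfamily, of which 6 surround Cyp6a20. Cyp6a9, on its left side, had 33.3 FPKM in tg1, 32.5 in tg2, 20.4 in hom and 21.9 in CAG. Cyp6a21, on its right side, had 13.4 FPKM in tg1, 10.1 in tg2, 7.91 in hom and 9.14 in CAG. At both neighbours the tg libraries were the higher ones. Cyp6a8, a gene raised in many insecticide-resistant strains, had 8.12 FPKM in tg1, 12.5 in tg2, 7.55 in hom and 8.14 in CAG. Over the 5 other tested loci of the cluster the difference of tg1 from CAG ran between −0.0047 and 0.59, and that of tg2 from CAG between 0.09 and 0.56, with none called. Cyp6a19 shares the span of Cyp6a9, and fragments can be split between these similar genes, so its values of 0.255 FPKM in tg1, 0.408 in tg2, 0.432 in hom and 1.40 in CAG are uncertain. The antenna marker genes summed to 82.6 FPKM in tg1, 79.5 in tg2, 78.8 in hom and 106 in CAG over 7 loci, with none at 0 in any library, and their part in the Cyp6a20 difference was not tested.

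**Figure D3:**
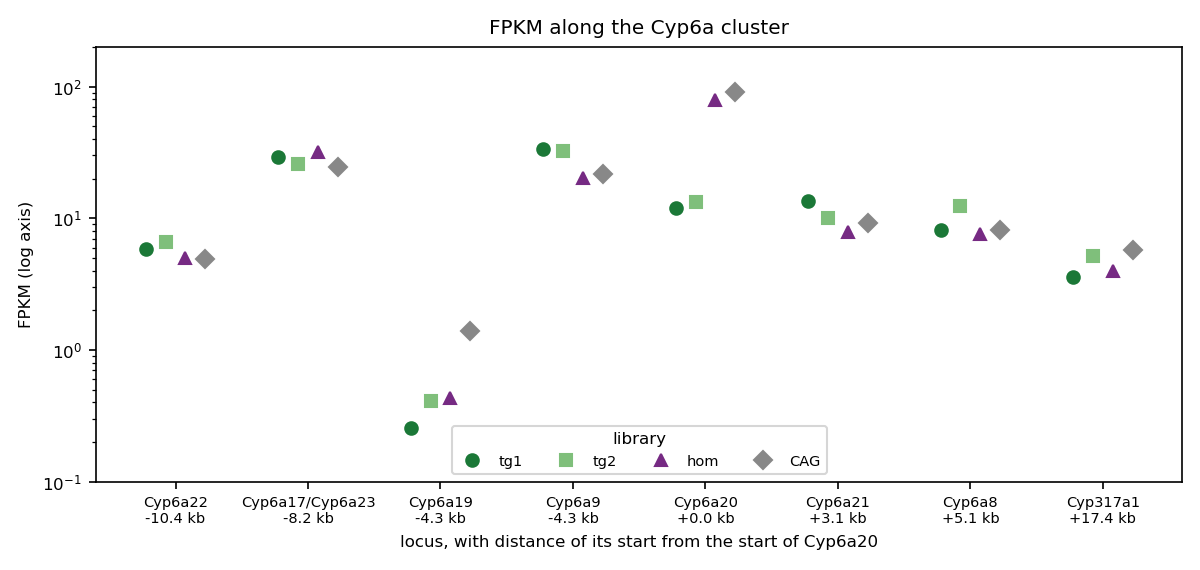
FPKM on a log axis of the Cyp6a loci and of Cyp317a1 in the tg1, tg2, hom and CAG libraries, ordered along the chromosome and labelled with the distance of each start from that of Cyp6a20. The tg1 and tg2 points of Cyp6a20 (12.0 and 13.2) lie below its hom and CAG points (79.1 and 91.0), while those of Cyp6a9 (33.3 and 32.5) lie above them (20.4 and 21.9).

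In tg2 against hom, 9 of 52 P450 loci were called lower and 2 higher. That is 17.3% lower, against 2.69% of all tested loci, and 3.85% higher, against 3.78%. In either direction the share over all tested loci was 6.48%. Cyp6a20, Cyp4d1, Cyp6a13, Cyp9c1, Cyp310a1, Cyp4c3, Cyp6w1, Cyp4e3 and Cyp6d4 were lower, and Cyp313a1 and Cyp4d8 were higher. At 6 of the 9 lower loci hom was also the highest library, and at 8 tg2 was the lowest. Both counts follow in part from the call itself, which selected loci with tg2 below hom, so they add no support. The median difference was −0.23 over P450 loci and 0.02 over all tested loci. With a pseudocount of 5 the called loci numbered 5, all lower, and among members whose span overlaps no other locus they numbered 7, with 6 lower and 1 higher.

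In tg2 against CAG, 3 P450 loci were called lower and 0 higher, against 2.34% lower and 2.25% higher (4.59% in either direction) among all tested loci. These were Cyp6a20, Cyp6w1 and Cyp6a13. Called or not, 39 of 52 P450 loci had a difference below 0, which is 75%, against 51.6% of all tested loci. The median was −0.32, against −0.01 over all tested loci. Cyp4d1 lay nearest below the threshold with −0.95. With a pseudocount of 0.1, which weighs low genes more, 7 loci were called lower and 2 higher.

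In tg1 against CAG, 3 P450 loci were called lower and 0 higher, against 2.36% lower and 1.19% higher (3.55% in either direction) among all tested loci. These were Cyp6a20, Cyp313a1 and Cyp28c1, with a median of −0.07 over P450 loci and −0.03 over all. With a pseudocount of 5 only 1 was called, and with a pseudocount of 0.1 there were 5, with 3 lower and 2 higher. Nearest below the threshold was Cyp9h1 with 0.91. Cyp9h1 had 11.7 FPKM in tg1, 11.7 in tg2, 8.01 in hom and 5.77 in CAG. Cyp6t1 had a similar order, with 4.53 FPKM in tg1, 4.54 in tg2, 3.09 in hom and 1.98 in CAG. At both genes the tg libraries lay above hom and CAG without reaching the call.

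In tg1 against hom, 3 P450 loci were called lower and 0 higher, against 1.72% lower and 1.82% higher (3.54% in either direction) among all tested loci. Cyp6a20, Cyp4d1 and Cyp9c1 were the loci called. Cyp4d8, higher in tg1 by 0.9995, fell just short, and centring the libraries or scaling them by a trimmed mean gave 3 lower and 1 higher. With a pseudocount of 0.1 there were 6 calls, 4 of them lower.

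In tg1 against tg2, 3 P450 loci were called higher and 0 lower, against 1.33% higher and 1.98% lower (3.31% in either direction) among all tested loci. Cyp4e3, Cyp6a13 and Cyp6w1 were higher in tg1, with differences of 1.39, 1.37 and 1.12. The median difference was 0.23 over P450 loci, of which 36 of 52 lay above 0, and −0.04 over all tested loci. Below 0 lay 30.8% of P450 loci and 55.0% of all tested loci. The comparisons share libraries with each other, so their calls are not independent.

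In hom against CAG, 1 P450 locus was called higher and 1 lower, against 1.87% higher and 3.43% lower (5.3% in either direction) among all tested loci. Cyp4ad1 was higher in hom with a difference of 1.10 and Cyp313a1 lower with −2.29. Cyp4d1 lay just short of the call with 0.98, and with centred libraries it was called, which gave 2 higher and 1 lower. With a pseudocount of 5, or with a filter of 5 FPKM, only Cyp313a1 was called, and it drops out when members whose span overlaps another locus are left out. P450 loci had a median of −0.10 and all tested loci one of −0.01.

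**Figure D4:**
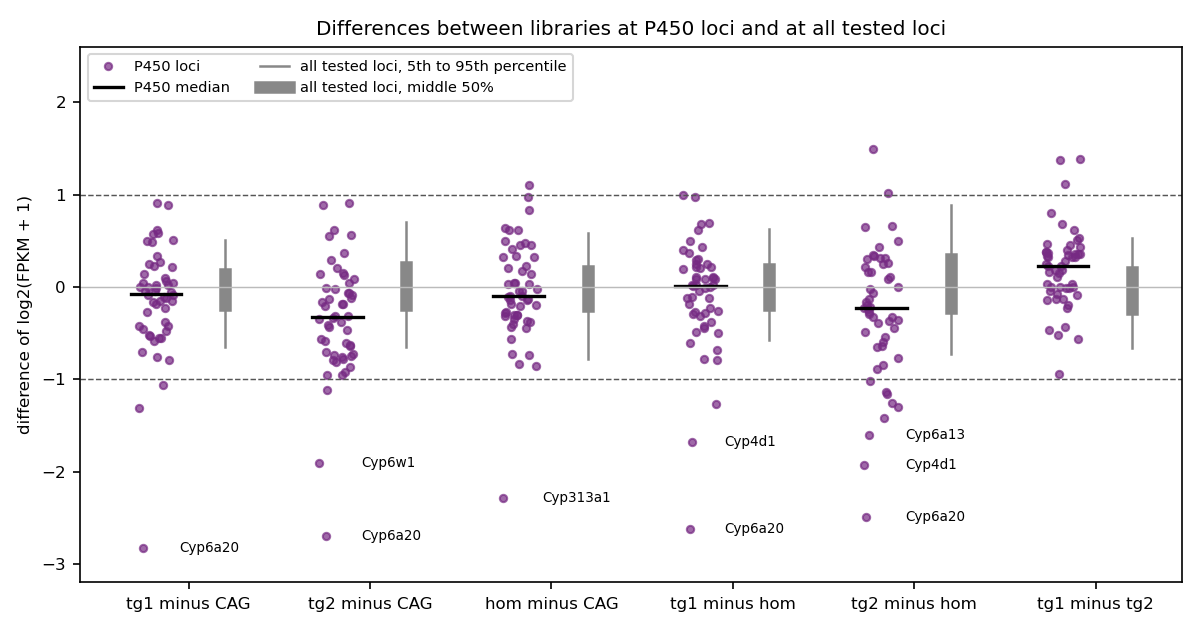
Differences of log2(FPKM + 1) in the 6 pairs of libraries, first-named minus second, with 1 point per tested P450 locus, a black line at the P450 median, thick grey bars for the interquartile range of all tested loci and thin grey lines for the outer percentiles named in the legend. Dashed lines mark the differences of 1 and −1 used for a call, and Cyp6a20 is the lowest point in each tg library set against hom or CAG (−2.83, −2.69, −2.63 and −2.49).

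**Figure D5:**
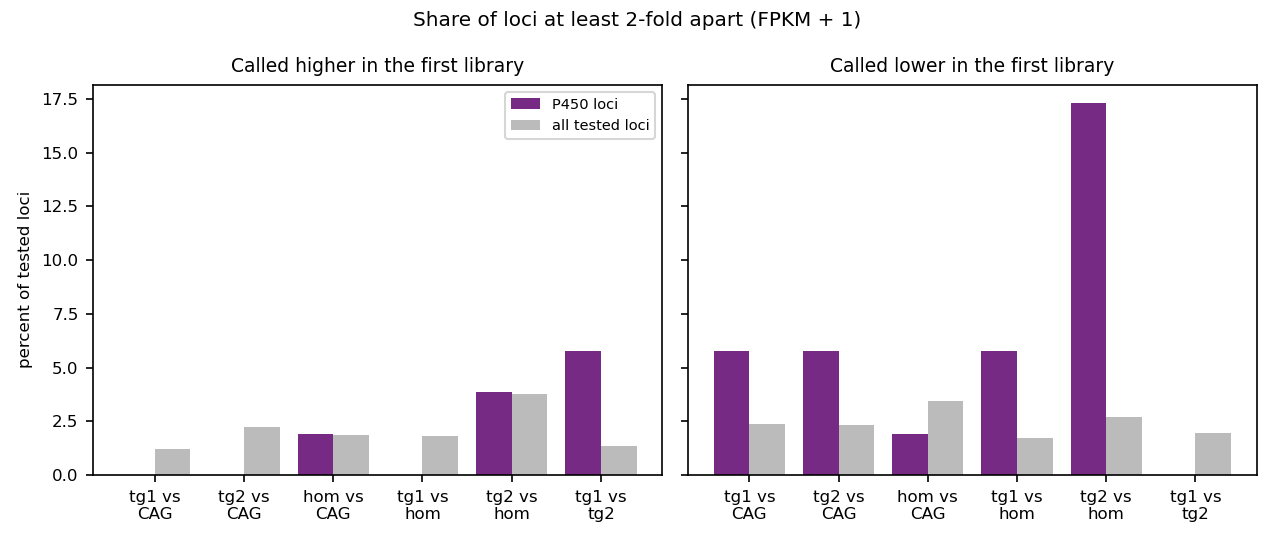
Percent of tested loci called higher (left) or lower (right) in the first-named library of each pair, for the 52 P450 loci and for all 11689 tested loci. The tallest bar is for P450 loci lower in tg2 than in hom, 17.3% against 2.69% of all tested loci.

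Of the Cyp4 family, 11 of 12 members were tested and 5 were called in some pair, against 11.6% of all tested loci. Cyp4d1, at X:2053175 to 2056160, had 4.27 FPKM in tg1, 3.44 in tg2, 15.9 in hom and 7.59 in CAG. hom was highest and both tg libraries were lowest, with differences from hom of −1.68 in tg1 and −1.93 in tg2. Cyp4e3, which contributes to permethrin tolerance in the Malpighian tubules of flies, had 38.5 FPKM in tg1, 14.1 in tg2, 32.3 in hom and 25.6 in CAG. tg2 was the lowest library there. Cyp4e3 lies at 2L:9747838 to 9750071. Cyp4c3, at 3R:26719682 to 26727883, had 31.5 FPKM in tg1, 22.5 in tg2, 55.1 in hom and 35.4 in CAG. CG33483 shares the Cyp4c3 span and had at most 1.32 FPKM in any library. hom stood highest at Cyp4c3, with tg1 and CAG close together.

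Cyp4d8 and Cyp4ad1 showed other orders of the libraries. Cyp4d8, at 3L:7486648 to 7489279, had 10.4 FPKM in tg1, 10.5 in tg2, 4.68 in hom and 9.32 in CAG. hom was lowest there, and tg2 passed the call against hom with 1.01, which became 0.97 with centred libraries. Cyp4ad1, at 2R:4326897 to 4330284, had 3.94 FPKM in tg1, 4.38 in tg2, 6.52 in hom and 2.50 in CAG, with hom highest and CAG lowest.

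Of the 6 most abundant Cyp4 members, Cyp4c3 and Cyp4e3 were called in some pair, against 11.6% of all tested loci. Cyp4g1, Cyp4g15, Cyp4s3 and Cyp4d20 were not called, and 6 loci are too few to set this group apart. Cyp4g15, the paralogue of Cyp4g1, had 49.8 FPKM in tg1, 38.0 in tg2, 49.2 in hom and 42.6 in CAG. Cyp4s3 had 37.4 FPKM in tg1, 29.1 in tg2, 53.0 in hom and 54.0 in CAG, from a span that holds 2 other loci. Cyp4d20 had 28.0 FPKM in tg1, 22.2 in tg2, 34.1 in hom and 37.8 in CAG, from a span that holds 6 other loci. tg2 was lowest at all of these, as it was at 8 of the 11 tested members of the family, against 28.1% of all tested loci. At Cyp4g1 the difference of tg2 from CAG was −0.70, of tg2 from hom −0.32 and of tg1 from tg2 0.69, none of them called. Of 5 oenocyte markers only 2 could be read at a locus of their own. The steroid dehydrogenase gene spidey (listed as CG1444) had 71.9 FPKM in tg1, 55.7 in tg2, 57.5 in hom and 62.6 in CAG, and desatF, a fatty acid desaturase gene listed as Fad2, had at most 0.278 FPKM. The part of oenocyte number in the Cyp4g1 values was not tested.

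In the Cyp6 family 14 of 16 members were tested and 4 called, against 11.6% of all tested loci. Of the 16, 11 lie on 2R. Cyp6a13, at 2R:4458006 to 4459650, had 21.0 FPKM in tg1, 7.50 in tg2, 24.7 in hom and 17.5 in CAG. Cyp6w1, whose product metabolises DDT in a resistant fly strain, had 4.44 FPKM in tg1, 1.51 in tg2, 4.61 in hom and 8.38 in CAG, at 2R:2061200 to 2062947. Among the 52 tested single-name P450 loci, only these had a library at least 2-fold away from each of the other 3. Both were low in tg2, which is 2 of 52, or 3.85%, against 0.505% of all tested loci. The same distance below each other library was found at 0.18% of all tested loci for tg1, 0.744% for hom and 0.351% for CAG. Above each other library it was found at 0.111% for tg1, 0.659% for tg2, 0.684% for hom and 0.779% for CAG. None of the 52 single-name P450 loci was among these. Joined loci were left out of this count, among them that of Cyp4p1, Cyp4p2 and Cyp4p3. At that locus tg2 stood at least 2-fold above each other library, as described further below. Cyp6d4, at 3R:18524046 to 18526029, had 10.03 FPKM in tg1, 7.70 in tg2, 16.7 in hom and 10.3 in CAG. hom was the high library there, and tg2 was just past the call against it with −1.02. Short of the call in every pair, Cyp6d5 had 14.3 FPKM in tg1, 10.8 in tg2, 17.5 in hom and 21.8 in CAG, and Cyp6a18 had 19.2, 13.2, 23.3 and 18.3 FPKM in tg1, tg2, hom and CAG. tg2 was lowest at both, as at 7 of the 14 tested members of the family, against 28.1% of all tested loci.

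Other Cyp6 members with a known role in insecticide resistance or hormone synthesis were not called or lay below the filter. Cyp6a2, a classic insecticide-resistance gene of the fly, had 12.1 FPKM in tg1, 17.2 in tg2, 15.3 in hom and 14.8 in CAG. Cyp6t3, needed for ecdysone synthesis in the prothoracic gland, had 0.908 FPKM in tg1, 0.565 in tg2, 1.06 in hom and 1.66 in CAG, and was the tested member nearest to the filter of 1 FPKM. Cyp6g2, expressed in the gland that makes juvenile hormone, had 0.555 FPKM in tg1, 0.772 in tg2, 0.287 in hom and 1.96 in CAG and fell just below the filter with a mean of 0.894. Cyp6t3 and Cyp6g2 share a locus span with each other and with Cyp6g1, so the split between them is uncertain. Both were highest in CAG.

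All 5 members of the Cyp9 family and all 3 of the Cyp28 family were tested. Cyp9f2 was the most abundant of them, with 53.7 FPKM in tg1, 57.3 in tg2, 44.9 in hom and 59.8 in CAG. Cyp9b2 had 20.8 FPKM in tg1, 22.0 in tg2, 25.8 in hom and 28.2 in CAG. The libraries lay within 0.5 on the log2 scale at both. Cyp9b1 was lower, with 4.59 FPKM in tg1, 3.91 in tg2, 3.57 in hom and 7.17 in CAG. Cyp9c1, at 2R:20502937 to 20526110, had 14.2 FPKM in tg1, 12.6 in tg2, 35.5 in hom and 24.7 in CAG. hom was highest and both tg libraries lay below both others, with differences from hom of −1.27 in tg1 and −1.42 in tg2. CG13594, which shares the Cyp9c1 span, had between 2.09 and 3.08 FPKM and did not follow it. Cyp28d1, which is induced by nicotine and contributes to nicotine tolerance, had 18.1 FPKM in tg1, 16.8 in tg2, 20.7 in hom and 26.7 in CAG. Cyp28c1, at X:11733640 to 11735414, had 0.241 FPKM in tg1, 1.38 in tg2, 1.13 in hom and 1.58 in CAG. Only tg1 was low there, and the call of tg1 against CAG, at −1.06, became −0.99 with centred libraries. Cyp28a5 had between 14.3 and 16.6 FPKM, and all 3 members of the Cyp28 family were highest in CAG, against 25.2% of all tested loci.

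None of the 6 tested members of the mitochondrial Cyp12 family was called, against 11.6% of all tested loci, and 6 loci are too few to set the family apart. Cyp12a4, which confers lufenuron resistance when overexpressed, had 11.9 FPKM in tg1, 7.41 in tg2, 7.39 in hom and 12.9 in CAG. tg1 and CAG were high, and tg2 and hom low, short of 2-fold. Cyp12c1 came nearest to the call, with 7.04 FPKM in tg1, 4.93 in tg2, 9.96 in hom and 7.74 in CAG and a difference of tg2 from hom of −0.89. The most abundant member, Cyp12b2, had 9.73 FPKM in tg1, 11.6 in tg2, 9.61 in hom and 10.4 in CAG. Cyp12d1-p and Cyp12d1-d are near-identical copies linked to DDT and caffeine response, so fragments may be split between them. Cyp12d1-p on 2R had 1.59 FPKM in tg1, 1.21 in tg2, 2.46 in hom and 2.37 in CAG. The copy listed on the unplaced Uextra scaffold was at 0 in all libraries, and Cyp12d1-d had at most 0.651 FPKM, in CAG.

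The other 13 families held 18 members, of which 13 were tested and 2 called, against 11.6% of all tested loci. These 13 loci are too few to set them apart. Cyp310a1, reported to dampen Wingless signalling in wing tissue, had 8.66 FPKM in tg1, 4.55 in tg2, 12.7 in hom and 6.65 in CAG. It lies at 2L:18617256 to 18661785, a span shared with MESR3, which had 19.2 FPKM in tg1, 20.9 in tg2, 15.4 in hom and 18.7 in CAG. The order of the libraries at MESR3 was the reverse of that at Cyp310a1 between tg2 and hom. Cyp313a1, at 3R:10339542 to 10383596, had 4.52 FPKM in tg1, 6.94 in tg2, 1.81 in hom and 12.7 in CAG. CAG was highest and hom lowest. Its span holds 5 other loci, among them Pde6 with 6.58 FPKM in tg1, 7.40 in tg2, 4.74 in hom and 7.04 in CAG. CG34273 was highest in CAG, with 1.49 FPKM. The unnamed loci there were highest in tg2 (2.82 FPKM), in tg1 (1.47) or in CAG (1.85). At the one highest in tg2, hom was listed at 0. The part of these loci in the Cyp313a1 values was not tested.

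Of P450s with a role in development, Cyp310a1 was called in some pair, against 11.6% of all tested loci. Cyp18a1, Cyp301a1, Cyp303a1 and Cyp311a1 were not called, nor was Cyp6t3, described above. Loci this few do not set the group apart. Cyp18a1, which inactivates ecdysteroids, had 5.46 FPKM in tg1, 5.44 in tg2, 4.22 in hom and 5.47 in CAG. Cyp301a1, which is needed to form the adult cuticle, had 17.2 FPKM in tg1, 13.2 in tg2, 16.2 in hom and 16.7 in CAG. Cyp311a1, which acts in the membrane of gut cell microvilli, had 18.2 FPKM in tg1, 13.6 in tg2, 17.8 in hom and 12.7 in CAG. At these 3 genes the libraries lay within 0.5 on the log2 scale. Cyp303a1, which is needed for sensory bristles, was low and more spread, with 1.35 FPKM in tg1, 0.873 in tg2, 1.19 in hom and 2.22 in CAG. Single members stood for most other families. Cyp49a1 had 13.5 FPKM in tg1, 11.4 in tg2, 11.6 in hom and 14.5 in CAG. Cyp305a1 had 14.5 FPKM in tg1, 12.6 in tg2, 10.8 in hom and 13.5 in CAG. Cyp312a1 had 21.5 FPKM in tg1, 22.1 in tg2, 18.3 in hom and 25.3 in CAG. The libraries lay within 0.5 at these genes too, with hom lowest at Cyp305a1 and Cyp312a1 and tg2 lowest at Cyp49a1. Cyp313b1, the most abundant of the Cyp313 family, had 6.01 FPKM in tg1, 6.996 in tg2, 8.13 in hom and 6.78 in CAG. Cyp317a1 had 3.58 FPKM in tg1, 5.16 in tg2, 3.97 in hom and 5.74 in CAG, and Cyp318a1 had 8.57 in tg1, 6.60 in tg2, 7.94 in hom and 6.92 in CAG.

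The 10 members below the filter were Cyp6g2, Cyp308a1, Cyp6a19, Cyp313a3, Cyp316a1, Cyp12d1-d, Cyp313a5, Cyp4d21, Cyp313a2 and the Uextra copy of Cyp12d1-p. Their highest value was 0.699 FPKM in tg1, 0.772 in tg2, 1.09 in hom and 1.96 in CAG, and 6 of them were listed at 0 in at least 1 library. Cyp4d21, also called sxe1, a gene with male-biased expression in the adult head, had 0.142 FPKM in tg1, 0.190 in tg2, 0 in hom and 0.144 in CAG. A value listed at 0 in these tables can be a failed estimate, and no fold is given for it.

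Genes of P450 function were read from 4 lists. Over the hormone P450s under other names (phm, dib, sad, shd, spo and spok), electron partners, heme enzymes and regulators of detoxification genes, 0 loci were called in any of the 6 pairs, against 11.6% of all tested loci. The lists are short, with 3, 4, 6 and 4 tested loci, so a count of 0 does not set them apart. For tg2 against CAG the list medians were 0.26, −0.41, −0.15 and −0.26 in that order, against −0.01 over all tested loci. The reductase gene Cpr had 62.3 FPKM in tg1, 53.4 in tg2, 52.7 in hom and 79.4 in CAG, with CAG highest and a difference of tg2 from CAG of −0.56. Cyt-b5-r, annotated as a cytochrome b5-related gene, had 39.9 FPKM in tg1, 23.9 in tg2, 29.9 in hom and 38.6 in CAG. shd, which makes the active hormone 20-hydroxyecdysone, had 9.44 FPKM in tg1, 7.60 in tg2, 9.47 in hom and 8.59 in CAG. phm, dib and spo were below the filter. The regulator genes cnc and maf-S lie in loci with several joined names and were not read.

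Markers of other tissues differed between the libraries too. Over 7 fat body loci the summed level was 3785 FPKM in tg1, 3680 in tg2, 12424 in hom and 4807 in CAG, with no marker at 0. hom, the library with the largest fat body sum, was also highest at Cyp4d1, Cyp4c3, Cyp9c1, Cyp6d4, Cyp6a13, Cyp310a1 and Cyp4ad1, and lowest at the called loci Cyp4d8 and Cyp313a1. Over all tested P450 loci hom was highest at 13 of 52, or 25%, against 27.8% of all tested loci. Over 8 male accessory gland loci the sum was 426 FPKM in tg1, 311 in tg2, 261 in hom and 1196 in CAG, with Acp98AB at 0 in hom. Over 13 midgut loci it was 25.1 FPKM in tg1, 26.8 in tg2, 21.3 in hom and 59.4 in CAG, with 5 loci at 0 in at least 1 library. The largest part of the midgut sum in CAG was Mal-A1 (listed as LvpH), with 36.0 FPKM. Its span is shared with the joined locus of Cyp4e1 and Cyp4e2. The midgut loci did not share an order of the libraries. Jon65Aiii and Jon65Aiv were highest in tg2, with 4.15 and 6.98 FPKM against 2.23 and 3.58 in CAG. In tg2 against CAG, 0 of 5 tested midgut loci were called higher and 2 lower, against 2.25% higher and 2.34% lower among all tested loci. These 5 loci are too few to set the list apart. CAG, with the highest sum for both lists, held the highest value at 22 P450 loci. Among the called ones these were Cyp6a20, Cyp313a1, Cyp6w1 and Cyp28c1, and CAG was lowest at Cyp4ad1. Over 7 Malpighian tubule loci the sum was 46.2 FPKM in tg1, 50.6 in tg2, 52.4 in hom and 55.6 in CAG, with Uro, the tubule urate oxidase, at 0 in tg2 and at most 0.376 elsewhere. The tubule loci did not share an order of the libraries. The transporter Oatp58Db had 0.914 FPKM in tg1, 1.01 in tg2, 10.1 in hom and 11.5 in CAG. In the other direction, salt had 11.8 FPKM in tg1, 14.3 in tg2, 8.80 in hom and 9.01 in CAG, and Irk3 had 10.8 in tg1, 9.35 in tg2, 8.23 in hom and 9.22 in CAG. The part of these tissues in the P450 differences was not tested.

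Another 11 loci joined 19 P450 names with each other or with other genes and were not members, and 5 of them held P450 names alone. The locus of Cyp4p1, Cyp4p2 and Cyp4p3, at 2R:5115285 to 5134752, had 9.84 FPKM in tg1, 51.7 in tg2, 11.6 in hom and 12.7 in CAG. tg2 was the high library there, with a difference from CAG of 1.95 and from hom of 2.06. The locus of Cyp309a1 and Cyp309a2 had 21.9 FPKM in tg1, 23.6 in tg2, 38.5 in hom and 15.1 in CAG, and the difference of hom from CAG was 1.29. The locus of Cyp6a17 and Cyp6a23 had 29.0 FPKM in tg1, 26.0 in tg2, 31.8 in hom and 24.4 in CAG, with no pair called. Values of joined loci cannot be assigned to a single gene.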

How the data were processed

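The authors deposited values given as FPKM, 1 per locus and library, with the value column of the CAG library headed het. Alignment and quantification tools listed in the submitters' processing notes are Cufflinks, TopHat, bedtools and SAMtools, with no version, and the build is dm3. The sources used here do not give the annotation, strand use or the handling of fragments that map to several places, so near-identical P450 copies and overlapping loci are uncertain. Per the labels' protocols, RNA was depleted of ribosomal RNA, treated with DNase and sequenced as paired reads of 48 nt.

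From these values, differences of log2(FPKM + 1) were computed for 6 pairs of libraries over loci averaging 1 FPKM or more (Python 3.11.15, numpy 2.4.6, pandas 2.3.3), and a difference of 1 or more was called. The computation was tested on simulated data. With 1 library per line no test was possible. All 63 member names matched a Release 6 annotation, used for names and gene types only. Relative depth is the inverse of the most frequent ratio of low values to those in CAG. That ratio was shared within 3% by 48 of 385 low loci in tg1, 78 of 388 in tg2 and 73 of 330 in hom. Named genes were the called members, the 10 most abundant, the most abundant of each family, those nearest the threshold and those with a stated role. Members and lists were chosen with earlier results of these data known. Alternatives were 9 planned settings and 1 added after seeing the data. Positions are printed in dm3 as the deposited loci give them. No sequence was used here.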

Additional observations from a re-analysis of the deposited data

How the results depend on the processing

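No paired analysis was possible because each line had 1 library. Under a pseudocount of 0.1, 5 P450 loci were called in tg1 against CAG, 9 in tg2 against CAG and 6 in tg1 against hom, where 3 were called in each with a pseudocount of 1. Under a pseudocount of 5 there were 1 in tg1 against CAG, 1 in hom against CAG and 5 in tg2 against hom, where the counts had been 3, 2 and 11. A filter of 5 FPKM left 1 in hom against CAG. Without members whose span overlaps another locus there were 1 in hom against CAG and 7 in tg2 against hom, where 34 members were left to count. For the pseudocounts and the 5 FPKM filter the cause was not tested. The other counts stayed within 1.5 times under these settings, under no filter, centring, trimmed-mean scaling, and without loci listed at 0, Cyp1 or Cyp6a20. No called difference turned its sign under any setting run. Of 25 called differences at members, 11 fell short of the call with a pseudocount of 5 and 2 with centred libraries. Scaling moved the median of all tested loci by less than 0.1 in every pair. Depth is lowest in hom, so low values there rest on fewer fragments.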
